A study of Mus musculus with 12 samples.

Results

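Transcripts of 10 genes of insulin and insulin-like growth factor (IGF) signalling were followed in a calf muscle, the gastrocnemius, and in the hypothalamus of mice with and without a CT-26 tumour. They were taken by name, as 10 of the 55416 genes counted: the ligand gene Igf1, the receptor genes Igf1r and Insr, the adaptor genes Irs1 and Irs2, the kinase genes Akt1 and Akt2, and the transcription factor genes Foxo1, Foxo3 and Foxo4. All 10 had enough counts to be tested in both tissues. CT-26 is a colon carcinoma line that grows in BALB/c mice, and the tumour-bearing animals are used as a model of cachexia, the wasting of body tissue in cancer. The mice were male BALB/c animals aged 7 weeks. In the CT-26 groups the cells were injected under the abdominal skin, weight was 7 to 10% lower by day 10 and tissue was taken on day 25; control mice had no tumour injection, and no day of collection is given for them. Each tissue gave a CT-26 group and a control group, so that there were 4 groups, each with 3 libraries from 3 numbered mice.

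Insulin and IGF1 bind the related receptors encoded by Insr and Igf1r, which pass the signal through the adaptors IRS1 and IRS2 to PI3-kinase and then to the AKT kinases. AKT favours glucose uptake and protein synthesis, and it phosphorylates the FOXO factors, which keeps them out of the nucleus. In muscle, nuclear FOXO proteins switch on genes of protein breakdown, among them the ubiquitin ligase genes Fbxo32 and Trim63, while in the hypothalamus the same chain of proteins takes part in the response to insulin that regulates feeding. Transcript levels say nothing of phosphorylation or of where the FOXO proteins were in the cell.

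Promoter sequence is shown for the members with the largest rise (Akt1 and Foxo1), a member with a fall (Irs1) and its paralogue (Irs2), because these genes moved differently within the same pathway. Each line holds 250 bases before and 50 from the RefSeq start of transcription, on the gene's strand, 5′ to 3′, in build GRCm38.p6. Capitals mark 7-base matches, on either strand, to the FOXO core TGTTTAC (its reverse is GTAAACA) or to the insulin response element core TGTTTTG (its reverse is CAAAACA). Akt1 has a pair of windows in RefSeq, of which 1 is printed. The Akt1 window printed is chr12:112674835-112675134 on the minus strand, the Foxo1 window chr3:52268087-52268386 on the plus strand, the Irs1 window chr1:82291390-82291689 on the minus strand and the Irs2 window chr8:11008880-11009179 on the minus strand.
Akt1: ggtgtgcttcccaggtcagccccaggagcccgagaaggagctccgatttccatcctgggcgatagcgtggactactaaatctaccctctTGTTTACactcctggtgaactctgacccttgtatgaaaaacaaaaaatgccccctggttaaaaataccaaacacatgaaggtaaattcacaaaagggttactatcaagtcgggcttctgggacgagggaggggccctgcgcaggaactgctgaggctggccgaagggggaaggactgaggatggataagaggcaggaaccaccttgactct
Foxo1: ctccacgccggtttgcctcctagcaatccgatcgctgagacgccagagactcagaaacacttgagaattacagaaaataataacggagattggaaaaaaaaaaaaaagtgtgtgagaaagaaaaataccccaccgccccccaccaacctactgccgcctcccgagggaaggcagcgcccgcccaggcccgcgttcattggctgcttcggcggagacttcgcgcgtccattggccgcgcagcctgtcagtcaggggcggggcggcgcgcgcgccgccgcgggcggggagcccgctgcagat
Irs1: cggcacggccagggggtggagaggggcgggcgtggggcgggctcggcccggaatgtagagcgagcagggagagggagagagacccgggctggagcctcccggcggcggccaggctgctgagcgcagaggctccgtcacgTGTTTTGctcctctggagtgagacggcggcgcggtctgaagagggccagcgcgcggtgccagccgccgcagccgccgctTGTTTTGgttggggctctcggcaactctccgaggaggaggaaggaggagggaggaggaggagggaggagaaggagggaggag
Irs2: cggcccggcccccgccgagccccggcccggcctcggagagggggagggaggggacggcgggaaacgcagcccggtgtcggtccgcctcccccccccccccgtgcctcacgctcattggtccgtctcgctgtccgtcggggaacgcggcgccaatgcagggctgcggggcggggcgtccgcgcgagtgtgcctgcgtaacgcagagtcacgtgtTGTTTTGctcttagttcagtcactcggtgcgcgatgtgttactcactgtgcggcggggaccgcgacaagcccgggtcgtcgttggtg

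The printed Akt1 window held TGTTTAC starting 161 bases before the start, while the other, chr12:112674227-112674526 on the minus strand, held neither motif and had a GC content of 79.7%; the Foxo1 window held neither motif. The Irs1 window held TGTTTTG starting 111 and 32 bases before the start, and the Irs2 window held it 37 bases before. Windows were found for 8 of the 10 members, 12 in all, with none for Insr and Foxo4, and no other window of a member held either motif. Over 32851 RefSeq windows of the same length, TGTTTAC or its reverse was in 3.65% and TGTTTTG or its reverse in 6.28%. These matches describe the letters of the windows only. The GC content was 52.3% in the printed Akt1, 61.3% in the Foxo1, 71.3% in the Irs1 and 72.0% in the Irs2 window, against a median of 52.7% over all windows.

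In muscle, 5 of the 10 transcripts rose (Akt1, Foxo1, Foxo3, Igf1r and Insr) and 2 fell (Igf1 and Irs1), while Irs2, Akt2 and Foxo4 did not pass the test. Calls were made where the adjusted p was below 0.05 in edgeR's quasi-likelihood test with Benjamini-Hochberg adjustment over all genes tested in the tissue. In the gastrocnemius 38% of 14265 genes were called, 19.6% higher and 18.3% lower, so change was common in this tissue. In the hypothalamus 8.77% of 17961 genes were called, 3.94% higher and 4.83% lower, and Insr was the member called, as a rise. The median log2 change of the members was 0.52 in muscle, against -0.0015 over all genes there, and 0.047 in the hypothalamus, against -0.0032. On the CPM scale (explained below), the CT-26 and control libraries did not overlap for 8 of the 10 members in muscle, beside 51.7% of all genes. Of these members 6 lay above and 2 below control. In the hypothalamus 1 of 10 did not overlap, beside 30.3% of all genes.

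**Figure D1:**
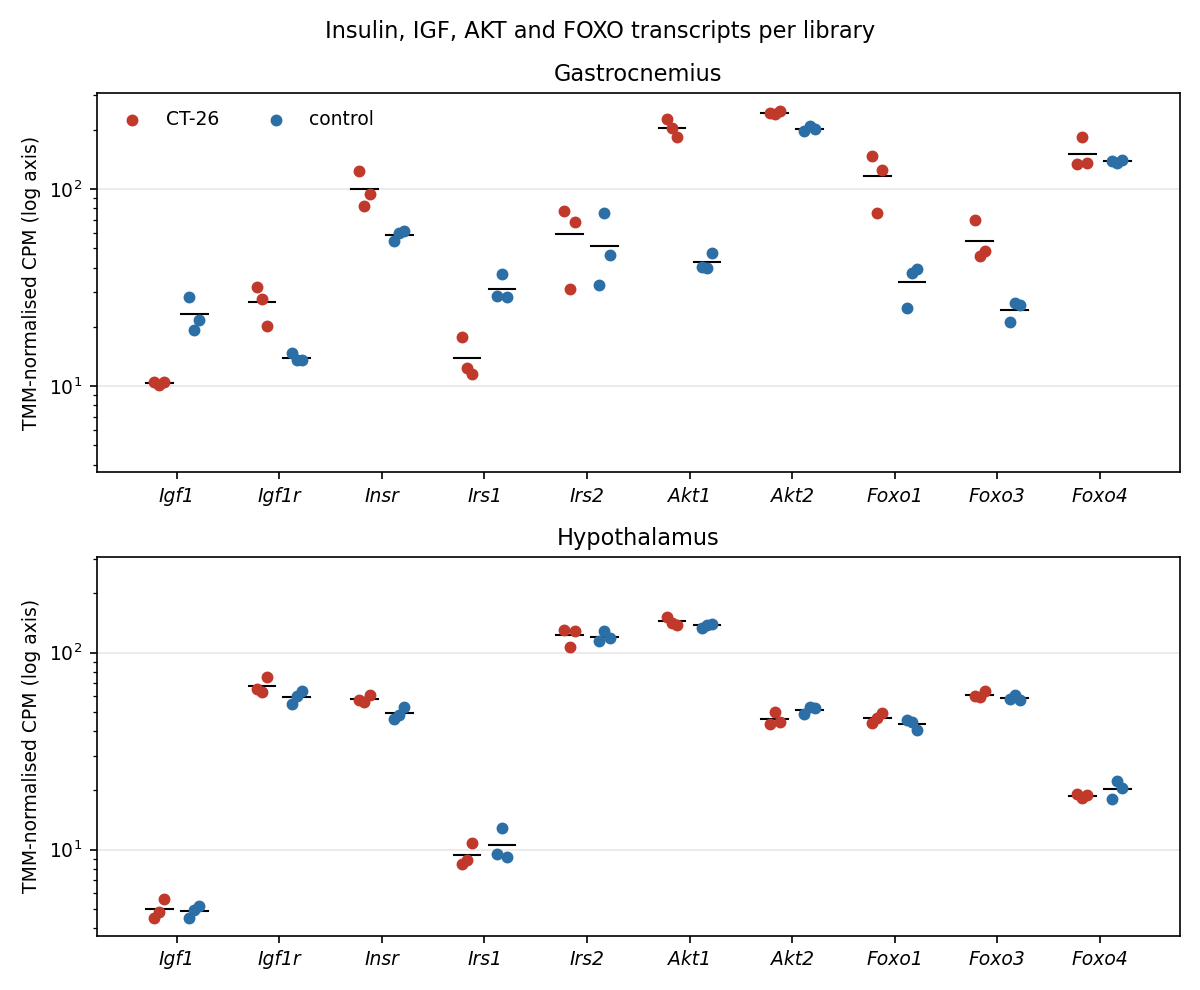
TMM-normalised CPM (counts relative to the library total, log axis) of the 10 members, a point per library and a bar at the group mean (n = 3), with CT-26 left of control for each gene. In the gastrocnemius Akt1 lies at 184 to 227 CPM in CT-26 and 39.8 to 47.2 CPM in control libraries, while in the hypothalamus the groups overlap for 9 of 10 genes.

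CPM are counts relative to the library total after TMM scaling (the trimmed mean of M-values of edgeR), and this scaling sets the zero of each fold change. The share of called genes that were higher in CT-26 muscle was 51.7% with TMM, 70.4% with library totals alone and 81.5% with the deposited TPM (which also divides by transcript length); in the hypothalamus it was 45.0% with TMM and 57.7% with library totals. The median of all genes in muscle was 0.20 with library totals and 0.28 with TPM on the log2 scale, so changes below are relative to most genes. Library totals ran from 26015741 to 52535761 estimated counts. Mitochondrially encoded genes held 8.26, 10.1 and 11.1% of counts in CT-26 muscle and 15.2, 13.5 and 19.7% in control muscle. Myofibre markers summed to 68190 to 122200 CPM in CT-26 and 130500 to 171100 CPM in control muscle. Of these 8 markers, Acta1 and Myl1 were called lower, 0 were called higher and 6 were not called. Their median log2 change was -0.30. Listed neuron markers summed to at most 4.51 CPM in any CT-26 library and 5.79 CPM in any control library of muscle. Neuron markers summed to 3859 to 4022 CPM in CT-26 and 3844 to 4192 CPM in control hypothalamus. Markers of other cells also differed in muscle: the summed neutrophil list was at 21.8 to 146 CPM in CT-26 and 0.511 to 0.889 CPM in control libraries, with the granule protein genes Ltf and Camp at 0 in all controls, and erythroid markers were at 806 to 844 CPM in CT-26 and 198 to 433 CPM in control libraries. Adipocyte markers, of which 6 of 7 were called lower in muscle, were at 110.3 to 131.5 CPM in CT-26 libraries, against 193 to 246 CPM in control libraries. Satellite cell markers, with 1 of 7 called higher and 2 lower, were at 61.5 to 71.1 CPM in CT-26 libraries, against 30.6 to 33.1 CPM in control libraries. The gene called higher was Cdh15 (log2 1.86). The median log2 change of this list was -0.30, with 2 of 7 above 0, so the sum does not describe most of its genes. In the hypothalamus neutrophil markers were at 13.1 to 99.1 CPM in CT-26 libraries, against 4.41 to 5.77 CPM in control libraries, and erythroid markers at 561 to 704 CPM with CT-26, against 242 to 385 CPM in controls. Hypothalamic oligodendrocyte markers were at 3057 to 3337 CPM in CT-26 and 4555 to 5073 CPM in control libraries. The part of these lists in the results below was not tested.

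Igf1 encodes the IGF1 that muscle makes for local use, besides the hormone released by the liver. It was at 10.5, 10.1 and 10.5 CPM in CT-26 muscle, against 28.3, 19.3 and 21.7 CPM in control muscle. The CT-26 libraries lay close together and all below the controls. Igf1 thus fell in muscle, 2.23-fold (log2 -1.16 ± 0.16 SE, adjusted p = 0.0011741 in edgeR). On the TPM scale it was at 2.50 to 3.60 in CT-26 and 4.03 to 5.42 in control muscle, which do not overlap either, but limma on log2(TPM + 0.5) did not call it (log2 -0.45, adjusted p = 0.1257). Fibroblast and fibro-adipogenic progenitor markers, of which 7 of 8 were called lower, summed to 348 to 474 CPM in CT-26 and 931 to 1477 CPM in control muscle, and macrophage markers, of which 1 of 8 was called, to 56.99 to 180.9 CPM in CT-26 libraries, against 75.13 to 89.87 CPM in control libraries. These cells also make Igf1, and their part in its fall was not tested; in tissue RNA, fewer cells of a type and less RNA per cell cannot be told apart. In the hypothalamus Igf1 was at 4.47, 4.83 and 5.64 CPM with CT-26, against 4.47, 4.93 and 5.19 CPM in controls, and the groups overlapped (log2 0.04, 95% interval -0.25 to 0.34).

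Both receptor transcripts rose in muscle. Igf1r was at 32.0, 27.6 and 20.2 CPM in CT-26 muscle, against 14.7, 13.6 and 13.6 CPM in control muscle. Every CT-26 library was above every control, and the CT-26 libraries were the more spread. The rise was 1.91-fold (log2 0.93 ± 0.17 SE, adjusted p = 0.0041456 in edgeR). Insr was at 123, 82.2 and 94.8 CPM in CT-26 muscle, against 54.8, 59.7 and 61.2 CPM in control muscle, again without overlap. Its rise was 1.71-fold (log2 0.77 ± 0.16 SE, adjusted p = 0.00716 in edgeR). The log2 ratio of Insr to Igf1r in TPM was 2.31 ± 0.28 in CT-26 and 2.40 ± 0.22 in control muscle (SD, n = 3), a difference of -0.08 that was smaller than the spread between mice (exact two-sided permutation p = 0.7). In the hypothalamus Insr was at 57.3, 56.2 and 60.8 CPM with CT-26, against 46.3, 48.5 and 52.9 CPM in controls. The groups did not overlap, and Insr rose 1.18-fold (log2 0.24 ± 0.061 SE, adjusted p = 0.036115 in edgeR). This call was lost without CT-26 mouse 1, 2 or 3 (adjusted p = 0.08804, 0.05177 and 0.1152 in edgeR) and without control mouse 1 or 2 (adjusted p = 0.09165 and 0.1166). Igf1r was at 65.3, 63.2 and 75.0 CPM in CT-26 hypothalamus, against 54.7, 60.1 and 64.0 CPM in control hypothalamus, with overlap and no call (log2 0.19, 95% interval 0.022 to 0.36, adjusted p = 0.14955 in edgeR).

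Of the adaptors, which couple the receptors to PI3-kinase, Irs1 was called in muscle and Irs2 was not. Irs1 was at 17.8, 12.4 and 11.6 CPM in CT-26 muscle, against 28.6, 37.1 and 28.3 CPM in control muscle. In CPM all CT-26 libraries were below all controls. In TPM the groups overlapped, with CT-26 mouse 1 at 2.66 and control mouse 3 at 2.61 TPM. Irs1 fell 2.24-fold (log2 -1.16 ± 0.19 SE, adjusted p = 0.0027747 in edgeR), while limma on log2(TPM + 0.5) did not call it (log2 -0.66, adjusted p = 0.05276). Adipocyte markers, given above, were lower in the same CT-26 libraries, among them Adipoq (log2 -2.35) and Pck1 (-1.61), and their part in the fall of Irs1 was not tested. Irs2 was at 77.2, 31.1 and 68.2 CPM in CT-26 muscle, against 32.7, 76.0 and 46.2 CPM in control muscle. The groups overlapped through their whole range and the interval was wide (log2 0.19, 95% interval -0.67 to 1.05, adjusted p = 0.714 in edgeR). In the hypothalamus Irs1 was at 8.48, 8.87 and 10.9 CPM with CT-26, against 9.46, 12.9 and 9.15 CPM in controls (log2 -0.16, 95% interval -0.48 to 0.17). Irs2 was at 131, 107 and 129 CPM in CT-26 and 114, 128 and 119 CPM in control hypothalamus (log2 0.03, 95% interval -0.14 to 0.20). Neither adaptor was called there. The log2 ratio of Irs1 to Irs2 in TPM differed by -1.35 between the groups in muscle, without overlap. The exact two-sided permutation p was 0.1 (0.2 adjusted). The ratio used the deposited Irs1 value, whose reads were divided with an overlapping gene (below). It was not taken with the counts of both genes summed. In the hypothalamus this ratio differed by -0.18, with overlap (exact two-sided permutation p = 0.5).

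The Irs1 value depends on how reads were shared with a gene on the opposite strand. The predicted gene Gm9747 (chr1:82233112-82235933, plus strand) lies inside exon 2 of Irs1 (chr1:82233101-82237604, minus strand), all of which is 3′ untranslated. The estimated counts of Irs1 were whole in 0 of 12 libraries, but those of Irs1 and Gm9747 summed to a whole number, within 0.01, in 12 of 12. Reads were therefore divided between the strands, although the library kit keeps strand. The ratio of Gm9747 to Irs1 counts was 1.33, 2.03 and 2.21 in CT-26 muscle, against 1.43, 1.07 and 1.23 in control muscle, so the overlapping gene took the larger part in every library. With both counts summed, an alternative chosen after the data were seen, the pair fell by 0.84 on the log2 scale in muscle (SE 0.12, adjusted p = 0.001544 in edgeR), a smaller change than that of Irs1 alone, and was not called in the hypothalamus (log2 -0.18, adjusted p = 0.254).

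Akt1, the AKT kinase most tied to growth, had the largest change among the members. It was at 227, 205 and 184 CPM in CT-26 muscle, against 40.2, 39.8 and 47.2 CPM in control muscle. The lowest CT-26 library was far above the highest control. The change was 2.27 on the log2 scale (SE 0.14, 95% interval 1.95 to 2.60, adjusted p = 8.7907e-05 in edgeR). Akt2, the isoform most tied to insulin-stimulated glucose uptake, was at 243, 240.0 and 250.1 CPM in CT-26 muscle, against 197, 208 and 202 CPM in control muscle. Its groups did not overlap either, but the difference was 1.21-fold and was not called (log2 0.27, 95% interval 0.0065 to 0.54, adjusted p = 0.096353 in edgeR). Akt2 was called higher with library totals (log2 0.47, adjusted p = 0.02653) and with TPM (log2 0.62, adjusted p = 0.01339 in limma). It shared reads with the processed pseudogene Akt2-ps, whose estimated counts of 10.1 to 114 per library were small beside the 1215 to 11453 of Akt2. In the hypothalamus Akt1 was at 152, 141 and 139 CPM with CT-26, against 134, 139 and 140 CPM in controls (log2 0.07, 95% interval -0.044 to 0.18). Akt2 was at 43.48, 50.02 and 44.19 CPM in CT-26 hypothalamus, against 48.6, 53.2 and 52.3 CPM in control hypothalamus (log2 -0.16, 95% interval -0.31 to -0.017). Neither kinase was called there (adjusted p = 0.444 and 0.155 in edgeR).

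The balance of the pair differed between the groups in muscle. Akt1 made up 50.5, 48.2 and 45.1% of their summed TPM in CT-26 muscle, against 19.3, 17.1 and 20.7% in control muscle. Control muscle thus held mainly Akt2 transcripts, and CT-26 muscle held similar amounts of both isoforms. The summed level of the pair was 249.5, 192.6 and 182.4 TPM in CT-26 muscle, against 87.1, 92.1 and 78.5 TPM in control muscle, without overlap. On the TPM scale the median log2 change of all genes in muscle was 0.28. Akt2, not called in the main test, was at a mean of 107.8 TPM in CT-26 and 69.7 TPM in control muscle. The log2 ratio of Akt1 to Akt2 was -0.12 ± 0.16 in CT-26 and -2.09 ± 0.17 in control muscle (SD, n = 3), a difference of 1.98. All CT-26 ratios lay above all controls, and the exact two-sided permutation p was 0.1, the smallest that 3 mice against 3 can give (0.2 after adjustment over 10 ratio tests). In the hypothalamus Akt1 was the larger part of the pair in both groups, with 78.5 ± 1.96% in CT-26 and 75.4 ± 0.707% in control libraries, and the summed level was 83.9 ± 6.09 TPM in CT-26 and 83.6 ± 3.26 TPM in control hypothalamus (SD, n = 3). The log2 ratio of Akt1 to Akt2 there was 1.87 ± 0.17 in CT-26 and 1.62 ± 0.055 in control libraries (SD, n = 3), a difference of 0.25 without overlap, with the same exact two-sided permutation p of 0.1 (0.2 adjusted).

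**Figure D2:**
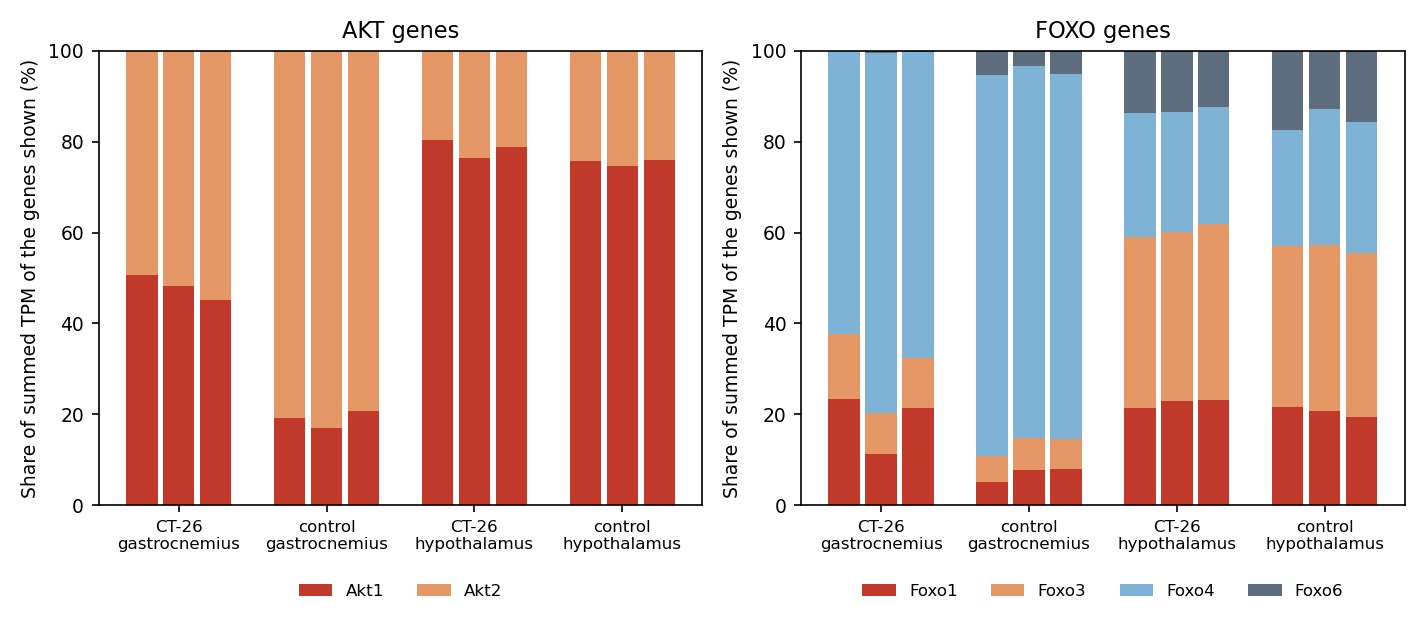
Share of each gene in the summed TPM of Akt1 and Akt2, and of 4 FOXO genes (per cent, stacked to 100), a bar per library, with CT-26 left of control in each tissue. Akt1 takes 45.1 to 50.5% of the pair in CT-26 muscle and 17.1 to 20.7% in control muscle, and Foxo4 takes the largest FOXO share in all 6 muscle libraries.

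Foxo1 and Foxo3, the FOXO factors best known for driving muscle atrophy genes in mice, rose in muscle, and Foxo4 was not called. Foxo1 was at 147, 75.8 and 125 CPM in CT-26 muscle, against 24.8, 37.3 and 39.5 CPM in control muscle. The groups did not overlap, and CT-26 mouse 2 was the lowest of its group. The log2 change was 1.78 (95% interval 1.16 to 2.39). Foxo3 was at 69.5, 46.0 and 48.7 CPM in CT-26 muscle, against 21.1, 26.3 and 25.9 CPM in control muscle, again without overlap. It rose 2.24-fold (log2 1.16 ± 0.18 SE, adjusted p = 0.0021559 in edgeR). Foxo4 was at 134, 184 and 136 CPM in CT-26 muscle, against 139, 136 and 141 CPM in control muscle. CT-26 mouse 2 was the high library here, the other two lay below all controls, and Foxo4 did not pass (log2 0.12, 95% interval -0.22 to 0.47, adjusted p = 0.54387 in edgeR); with TPM it was called higher (log2 0.48, adjusted p = 0.04665 in limma). In the hypothalamus no FOXO gene of the 3 was called. Foxo1 was at 43.9, 46.3 and 49.4 CPM with CT-26, against 45.7, 44.6 and 40.3 CPM in controls (log2 0.10, 95% interval -0.051 to 0.25). Foxo3 was at 59.9, 59.3 and 63.9 CPM in CT-26 and 58.4, 60.9 and 57.7 CPM in control hypothalamus (log2 0.05, 95% interval -0.064 to 0.17). Foxo4 was at 19.2, 18.3 and 18.8 CPM in CT-26 and 18.2, 22.2 and 20.5 CPM in control hypothalamus (log2 -0.11, 95% interval -0.30 to 0.070).

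Foxo4 remained the most abundant FOXO transcript in muscle per length. It made up 62.1, 79.2 and 67.4% of the summed TPM of Foxo1, Foxo3, Foxo4 and Foxo6 in CT-26 muscle, against 83.8, 81.8 and 80.5% in control muscle. Foxo1 made up 23.4, 11.3 and 21.5% in CT-26 and 5.19, 7.76 and 7.88% in control muscle, and Foxo3 14.4, 9.05 and 10.8% in CT-26 and 5.70, 7.03 and 6.61% in control muscle. CT-26 mouse 2 was the least shifted of the CT-26 mice in all 3 shares. Foxo6, a further FOXO gene known mainly from brain, fell 12.8-fold in muscle (log2 -3.68 ± 0.41 SE, adjusted p = 0.00057381 in edgeR), with 0.212, 0.813 and 0.538 CPM in CT-26 and 7.08, 4.66 and 7.14 CPM in control libraries. The family summed to 99.0, 87.5 and 74.5 TPM in CT-26 muscle, against 54.9, 52.6 and 48.9 TPM in control muscle, without overlap. This sum is on the TPM scale, where the median log2 change of all genes in muscle was 0.28. Foxo4, not called in the main test, was at a mean of 60.3 TPM in CT-26 and 42.8 TPM in control muscle. The log2 ratio of Foxo1 to Foxo4 differed by 1.63 and that of Foxo1 to Foxo3 by 0.59 between the groups in muscle, both with no overlap. The exact two-sided permutation p was 0.1 for each (0.2 adjusted). In the hypothalamus Foxo3 led with 37.9% of the family in CT-26 and 35.9% in control libraries, and Foxo1 held 22.4% in CT-26 and 20.7% in control libraries.

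Per length, the order of the 10 members in CT-26 muscle was Akt2 at a mean of 108 TPM, Akt1 at 100.4, Foxo4 at 60.3, Foxo1 at 16.4, Insr at 14.5, Irs2 at 11.5, Foxo3 at 10.1, Igf1 at 3.22, Igf1r at 2.92 and Irs1 at 1.87 TPM. In control muscle the order was Akt2 at 69.7, Foxo4 at 42.8, Akt1 at 16.3, Irs2 at 7.65, Insr at 6.21, Igf1 at 4.55, Foxo1 at 3.59, Foxo3 at 3.35, Irs1 at 3.18 and Igf1r at 1.19 TPM. Akt1 overlapped Akt2 over the CT-26 libraries, whereas in controls it stood apart from Akt2 and from Foxo4 above it. Foxo1, Insr, Irs2 and Foxo3 overlapped their neighbours in CT-26 muscle, as did Igf1, Igf1r and Irs1, and in controls Irs2 overlapped Insr, and Igf1, Foxo1, Foxo3 and Irs1 overlapped in turn. The hypothalamic order was the same in both groups but for Insr and Igf1r, whose ranges overlapped. It ran in CT-26 from Akt1 at 65.8 TPM through Irs2 at 21.3, Akt2 at 18.1, Foxo3 at 9.88, Foxo4 at 6.90, Insr at 6.80, Igf1r at 6.603 and Foxo1 at 5.85 to Irs1 at 1.12 and Igf1 at 1.11 TPM, and began in controls with Akt1 at 63.1 TPM. Irs2 and Akt2 overlapped there in both groups, as did Irs1 and Igf1.

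RSEM also gives the mean length of the transcripts it assigned, which moves when the mix of transcripts of a gene moves. Irs1, Irs2 and Foxo1 have 1 annotated transcript, so 7 members could be compared in each tissue. For Akt1 in muscle the length was 2632, 2659 and 2648 bases with CT-26, against 2564, 2575 and 2604 bases in controls, 2.52% longer and without overlap. The exact two-sided permutation p was 0.1, or 0.467 after adjustment over 14 length tests. Foxo3 (-90.7 bases) and Foxo4 (-12.1 bases) also did not overlap in muscle, and the mean length of Igf1 was 4078 ± 667 bases in CT-26 and 4806 ± 444 bases in control muscle (SD, n = 3), which overlapped.

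The response of the members differed between the tissues for 8 of the 10. This was tested as the interaction in an edgeR fit of all 12 libraries, as the log2 change in the gastrocnemius minus that in the hypothalamus, and 33.2% of the 13572 genes tested in both tissues were called in it. The difference was 2.19 ± 0.14 SE for Akt1 (adjusted p = 1.6258e-06), 1.66 for Foxo1 (adjusted p = 0.0013137), 1.10 for Foxo3 (adjusted p = 0.0014036) and -1.22 ± 0.21 SE for Igf1 (adjusted p = 0.00091843). It was -1.02 for Irs1 (adjusted p = 0.01309) and -0.68 for Irs1 and Gm9747 summed (adjusted p = 0.005117). The changes of Akt1, Foxo1 and Foxo3 were therefore higher, and those of Igf1 and Irs1 lower, in muscle than in hypothalamus. None of these genes was called in the hypothalamus. Igf1r differed by 0.73 (adjusted p = 0.017751), and without control gastrocnemius mouse 2 or CT-26 hypothalamus mouse 2 this was not called (adjusted p = 0.0548 and 0.05049). Insr (0.52, adjusted p = 0.0484) and Akt2 (0.42, adjusted p = 0.020871) were the weakest calls. With the mouse as a block, since both tissues came from the same mice, neither was called (0.50 with adjusted p = 0.06283, and 0.42 with adjusted p = 0.07574). The Insr call was also lost in 10 of 12 fits that each left out a mouse in a tissue, all but those without CT-26 gastrocnemius mouse 2 or 3, and the Akt2 call in 7 of 12, those without a control gastrocnemius mouse, CT-26 hypothalamus mouse 1 or 3, or control hypothalamus mouse 2 or 3. With log2(TPM + 0.5), the differences of Igf1 (-0.37, adjusted p = 0.2301 in limma) and Irs1 (-0.54, adjusted p = 0.1718) were not called. Irs2 and Foxo4 were not called (0.15 and 0.22).

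**Figure D3:**
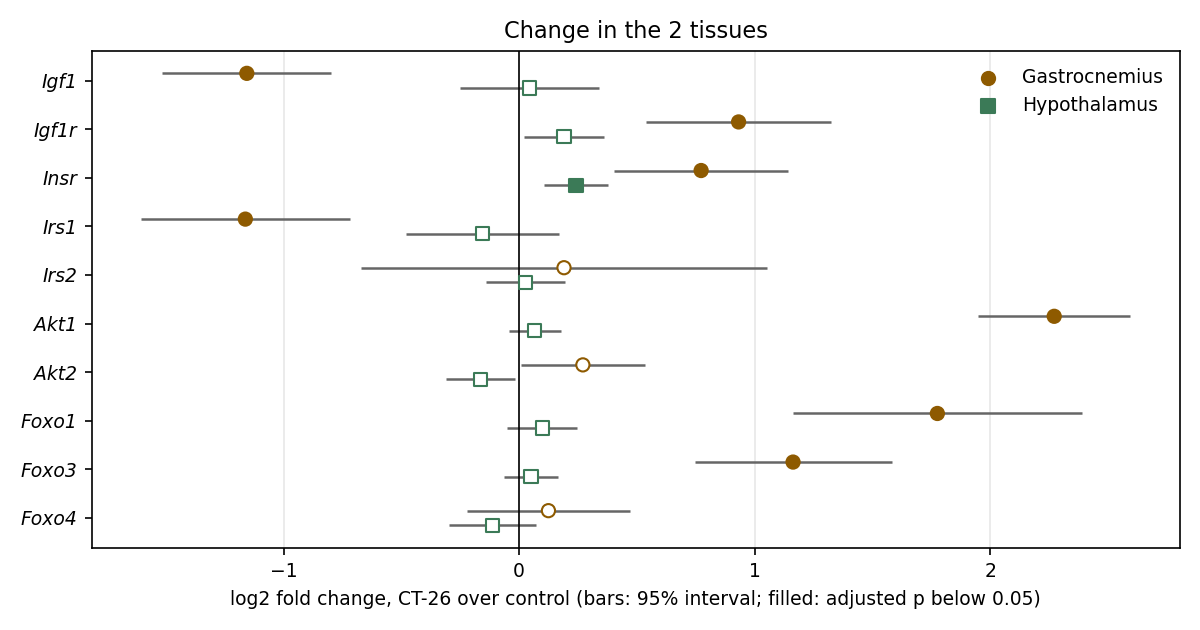
Log2 fold change of CT-26 over control for each member in the gastrocnemius and the hypothalamus, with 95% intervals, filled where the adjusted p is below 0.05. In the gastrocnemius the values run from -1.16 for Igf1 and Irs1 to 2.27 for Akt1, and in the hypothalamus from -0.16 to 0.24.

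Over the 12 libraries, the genes whose log2 CPM ran closest to each called member, by root-mean-square (RMS) difference after centring and among 12073 genes, were these. Foxo1 ran closest to Klf15 (RMS 0.174) and Bri3 (0.228), and Foxo3 to Pttg1ip (0.0988) and Mtor (0.0999). Akt1 ran closest to Tango2 (0.181) and Hgs (0.208), and Irs1 to Pck1 (0.198) and Inppl1 (0.238). Igf1 ran closest to B3galnt2 (0.168) and Adamts5 (0.190), Igf1r to Rnpc3 (0.119) and Ercc4 (0.125), and Insr to Cab39 (0.113) and Pitrm1 (0.122). Klf15 encodes a glucocorticoid-induced transcription factor of muscle, Mtor the kinase of the growth pathway downstream of AKT, and Inppl1 the lipid phosphatase SHIP2. Pck1, a gene of glycerol synthesis in fat, is on the adipocyte list. The measure takes in the difference between tissues as well as that between groups, and the libraries share their tissue and mice.

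The counts of the lists below stand beside 38% of all genes called in muscle and 8.77% in the hypothalamus. Around the members, the ligands' binding proteins showed large changes in muscle. Of 15 listed genes 10 were tested, with 2 higher (Igfbp3 and Stc2) and 4 lower (Igf1, Igfbp5, Igfbp6 and Igfals), and a median of 0.18 beside -0.0015 over all genes. Igfals had few counts (mean log2 CPM -0.65). Igfbp5, an IGF-binding protein of muscle, was at 18.8, 51.9 and 28.6 CPM in CT-26 muscle, against 871.5, 913 and 591 CPM in control muscle, 24.0-fold lower (log2 -4.58 ± 0.40 SE, adjusted p = 0.00027703 in edgeR). Every CT-26 library was far below every control. Igfbp3, the main IGF carrier in blood, was at 91.4, 34.8 and 53.1 CPM in CT-26 and 11.8, 9.35 and 8.71 CPM in control muscle, 6.02-fold higher (adjusted p = 0.0009461 in edgeR). Stc2, whose product blocks the proteases that free IGF from its binding proteins, was at 17.6, 18.1 and 15.7 CPM in CT-26 and 1.83, 2.31 and 1.53 CPM in control muscle, 9.07-fold higher (adjusted p = 8.7907e-05 in edgeR). Fibroblast markers moved in the same libraries, as given beside Igf1. In the hypothalamus 11 were tested, 3 rose and 0 fell: Igfbp7 (log2 0.84), Igfbp4 (0.70) and Igfbp3 (0.62).

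Among 18 receptors and adaptors, 16 were tested in muscle, with 5 higher (Igf1r, Insr, Gab1, Ptpn1 and Cblb) and 5 lower (Irs1, Irs3, Grb2, Grb14 and Sh2b2). The median was 0.03, and Irs3 had few counts (mean log2 CPM -0.86). Grb14, an adaptor that binds the activated insulin receptor and inhibits it, was at 2.18, 2.87 and 4.01 CPM in CT-26 and 15.9, 18.3 and 26.4 CPM in control muscle, 6.73-fold lower (adjusted p = 0.00040154 in edgeR). Cblb, a ubiquitin ligase known in mice to target IRS1 in unloaded muscle, was at 33.8, 28.1 and 25.0 CPM in CT-26 and 11.5, 16.2 and 15.6 CPM in control muscle, 2.01-fold higher (adjusted p = 0.002987 in edgeR). Thus the inhibitor gene Grb14 fell while the ligase gene Cblb rose. The calls of Gab1, Ptpn1, Grb2 and Sh2b2 were each lost in at least 1 alternative. Among the 17 tested in the hypothalamus 1 rose (Insr) and 2 fell (Gab1 and Sh2b2), with the call of each lost in at least 1 alternative.

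Of 10 listed genes of PI3-kinase, lipid phosphatases and the kinase PDK1, all tested, 3 rose (Pik3r1, Inpp5k and Pdpk1) and 2 fell (Pik3cd and Inppl1) in muscle, so that 5 of 10 were called beside 38% of all genes. Pik3r1, which encodes the p85α regulatory subunit, was at 86.7, 105.7 and 69.8 CPM in CT-26 and 18.8, 14.7 and 16.6 CPM in control muscle, 5.23-fold higher (adjusted p = 0.0001649 in edgeR). Inppl1 was at 40.8, 47.7 and 37.6 CPM in CT-26 and 75.5, 90.2 and 94.6 CPM in control muscle, 2.07-fold lower (adjusted p = 0.0012002 in edgeR). Inpp5k, another phosphatase gene, went the other way from Inppl1, at 55.9, 59.2 and 42.9 CPM in CT-26 and 26.0, 25.1 and 24.2 CPM in control muscle, 2.10-fold higher (adjusted p = 0.0011385 in edgeR). The call of Pik3cd (log2 -0.83), a catalytic subunit gene, was lost in at least 1 alternative, and the rise of Pdpk1 (log2 0.94) was not called without control mouse 2 (adjusted p = 0.05862 in edgeR). In the hypothalamus Inppl1 (log2 -0.43) and Pik3r3 (-0.22) fell and 0 rose, with both calls lost in some alternatives.

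Of 12 AKT kinases and regulators, 11 were tested in muscle; Akt1, Trib3 and Thbs1 rose and Trib2, Ppp2r5a and Ppp2r5c fell, 54.5% of those tested beside 38% of all genes. The rise of Trib3, a pseudokinase gene, was not called without control mouse 1 (adjusted p = 0.05167 in edgeR). Thbs1 encodes a secreted matrix protein, and its call and those of the 3 genes that fell were lost in at least 1 alternative; with TPM the value of Ppp2r5a was above 0. In the hypothalamus Phlpp1 (log2 -0.24) and Trib2 (-0.30) fell, with both calls lost in some alternatives. Among 8 AKT effectors of glucose handling, 5 rose in muscle (Gsk3a, Gsk3b, Gys1, Tbc1d4 and Tbc1d1) and 0 fell, with a median of 0.59. Tbc1d4, a brake on the glucose transporter GLUT4 that AKT releases, was at 60.4, 89.3 and 67.1 CPM in CT-26 and 27.5, 25.1 and 31.2 CPM in control muscle, 2.58-fold higher (adjusted p = 0.00085386 in edgeR). Gys1, the muscle glycogen synthase gene, was 1.77-fold higher. The calls of Gsk3a and Gsk3b, the glycogen synthase kinase genes, were lost when some single libraries were left out: for Gsk3a any control mouse or CT-26 mouse 2, and for Gsk3b control mouse 1 or 3. In the hypothalamus the glucose transporter genes Slc2a4 (log2 1.12 ± 0.17 SE, adjusted p = 0.0042616 in edgeR) and Slc2a1 (log2 0.54) rose, Slc2a4 at 5.19, 4.07 and 4.25 CPM in the CT-26 group, against 2.51, 1.89 and 1.82 CPM in the control group.

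Of 19 genes of the mTORC1 complex and translation, 8 rose and 4 fell in muscle, with a median of 0.28. Those that rose were Mtor, Akt1s1, Tsc1, Rheb, Rps6kb2, Eif4ebp1, Ddit4 and Sesn1, and those that fell were Mlst8, Deptor, Ddit4l and Sesn3. Sesn1, which encodes an inhibitor of mTORC1, was at 247, 82.0 and 165 CPM in CT-26 and 10.8, 14.1 and 14.2 CPM in control muscle, 12.6-fold higher (adjusted p = 0.00044567 in edgeR). Ddit4, which encodes the stress-induced inhibitor REDD1, was at 151, 58.6 and 121 CPM in CT-26 and 7.16, 11.1 and 17.1 CPM in control muscle, 9.36-fold higher (adjusted p = 0.000944 in edgeR). CT-26 mouse 2 had the lowest value of its group for both, as it had for Foxo1. Eif4ebp1 of the same list rose 10.3-fold and Ddit4l, a relative of Ddit4, fell by 1.402 on the log2 scale. Sesn3, a relative of Sesn1, fell (log2 -0.98, adjusted p = 0.0029232 in edgeR), at 9.45, 7.86 and 6.22 CPM in CT-26 muscle, against 15.0, 16.4 and 15.2 CPM in control muscle. Deptor, which encodes an mTOR inhibitor, also fell (log2 -0.77, adjusted p = 0.036824 in edgeR). Genes of mTORC1 inhibitors were thus among those that rose and among those that fell, and the calls of Sesn3 and Deptor were lost in some alternatives. In the hypothalamus Ddit4 rose (log2 0.51) and Eif4ebp2 fell by 0.29, with both calls lost in some alternatives.

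Of 20 FOXO factors and regulators, 4 rose (Foxo1, Foxo3, Sirt1 and Crebbp) and 2 fell (Foxo6 and Skp2) in muscle, 30.0% of the list beside 38% of all genes, and the calls of Sirt1, Crebbp and Skp2 were each lost in at least 1 alternative. In the hypothalamus Sgk1, which encodes a kinase that phosphorylates FOXO factors, was at 100.7, 55.1 and 92.0 CPM with CT-26, against 34.4, 34.4 and 51.3 CPM in controls. The groups did not overlap, and Sgk1 rose 2.07-fold (log2 1.05 ± 0.21 SE, adjusted p = 0.012994 in edgeR). The call was lost without CT-26 mouse 1 or control mouse 2 (adjusted p = 0.06036 and 0.05673 in edgeR) and in the fit of all 12 libraries (adjusted p = 0.07975). Stk4 (log2 -0.22) and Ywhah (-0.18) fell there, with both calls lost in some alternatives, so that 3 of 20 were called, 15.0% beside 8.77% of all genes. Of 25 genes listed as FOXO targets, 15 rose and 3 fell in muscle, with a median of 1.05 beside -0.0015 over all genes; the counts ran from 13 to 17 higher and from 2 to 3 lower when each mouse was left out. Many of these genes also answer to other factors, and some were listed for their known role in atrophy. Cdkn1a, a cell cycle inhibitor gene, was at 249.1, 144.1 and 225 CPM in CT-26 and 18.7, 26.3 and 20.9 CPM in control muscle. Fbxo32 and Trim63 rose by 3.54 and 3.41 on the log2 scale. Bcl6, a repressor gene, was at 34.6, 50.7 and 25.3 CPM in CT-26 and 123, 191 and 94.3 CPM in control muscle, 3.69-fold lower (adjusted p = 0.0028577 in edgeR), and the antioxidant genes Sod2 (log2 -0.83) and Cat (-0.77) fell, with neither called on TPM. The Cat call was lost in 7 of 15 alternatives and the Sod2 call in 2. In the hypothalamus, of the 24 tested, 4 rose and 2 fell: Txnip, a brake on glucose uptake, was at 43.9, 32.2 and 37.5 CPM in the CT-26 group, against 19.8, 17.1 and 16.5 CPM in the control group, 2.12-fold higher (adjusted p = 0.00053115 in edgeR), and Fbxo32 fell by 0.50 on the log2 scale, the opposite direction to muscle, with a call lost in 6 of 15 alternatives.

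**Figure D4:**
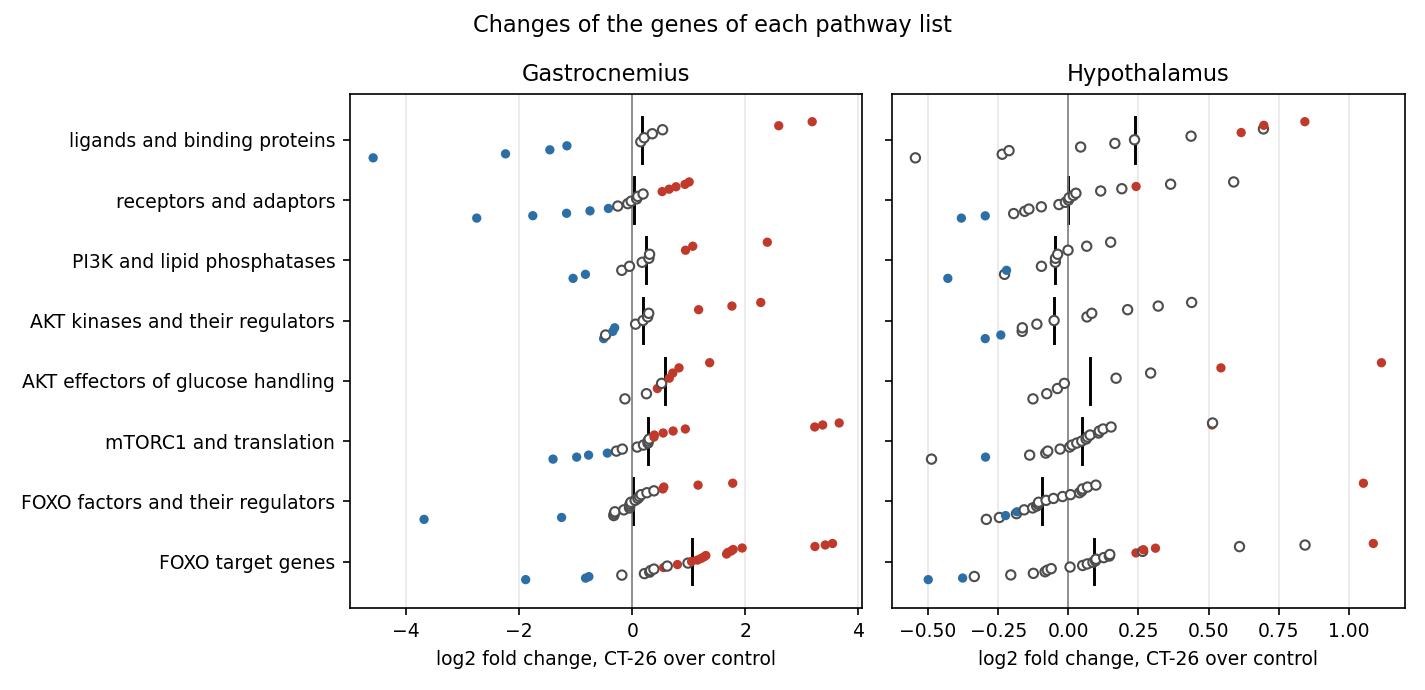
Log2 fold change of CT-26 over control for each tested gene of 8 pathway lists in the gastrocnemius and the hypothalamus, whose axes have different ranges. Red points were called higher, blue points called lower, open points not called, and the black bar is the list median, the highest being that of the FOXO targets in muscle at 1.05.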

How the data were processed

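Reads were trimmed (Trim Galore 0.6.6), aligned to build GRCm38 (STAR 2.7.9a) and quantified (RSEM 1.3.3), as the submitters' processing notes list these tools; the annotation release and strand setting are not given in the sources used here. The deposited tables give RSEM expected counts (estimated fragments per gene, not always whole because shared reads are divided by probability), TPM and the mean and effective length of the transcripts; deposited FPKM values were not used. Gene names and coordinates are from GENCODE M21.

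Expected counts were rounded and tested per tissue (6 libraries) with edgeR 4.0.16 in R 4.3.3: filterByExpr, TMM, the quasi-likelihood test and Benjamini-Hochberg adjustment over all genes. The difference between tissues was the interaction over 12 libraries. Ratios and lengths, with TPM and bases as deposited, were compared by exact permutation. Alternatives used DESeq2 1.42.0 and limma 3.58.1. The fits were also run on simulated counts in which few genes were changed, whereas 38% of genes were called in muscle. That run therefore does not test the scaling in muscle. Replicates were separate mice, and chi-square per gene between replicates was at least 6.31, so none was a duplicate.

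The members, lists and tests were chosen with earlier results of these data known. All members are reported; some other listed genes are not reported here and were left out of the lists' counts. Of each list, up to 3 called genes per direction and tissue whose mean log2 CPM reached 1 could be named, and the 2 genes most like each called member. Igfals, Irs3, Trib3, Skp2, Gsk3a, Gsk3b, Mtor, Akt1s1, Tsc1, Rheb, Rps6kb2 and Mlst8 complete counts and were named after their values were seen. Alternatives are not given for those of them in the mTORC1 list. In muscle, Igfals, Irs3, Trib3 and Skp2 had a mean log2 CPM of -0.65, -0.86, 0.49 and -0.42, below the naming level of 1. Both tissues came from the same numbered mice; deviations from the group means correlated across tissues at 0.031, -0.038 and -0.127 in CT-26 and 0.076, 0.207 and 0.063 in control mice.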

Additional observations from a re-analysis of the deposited data

Results flagged for a closer look

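The CT-26 effect differed between gastrocnemius and hypothalamus for 8 members by the interaction test in edgeR. As log2 change in muscle minus that in hypothalamus, the differences were 2.19 for Akt1, 1.664 for Foxo1, 1.098 for Foxo3, 0.728 for Igf1r, 0.5176 for Insr and 0.4193 for Akt2, and -1.218 for Igf1 and -1.021 for Irs1. The adjusted p ran from 1.6258e-06 for Akt1 to 0.0484 for Insr in edgeR, and 33.2% of all genes tested in both tissues were called in this comparison. With each mouse as a replicate block, Insr (adjusted p = 0.06283) and Akt2 (adjusted p = 0.07574) were not called in edgeR. Groups of 3 libraries are too small for a test of outlying samples.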

How the results depend on the processing

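In muscle, the rises of Akt1, Foxo1, Foxo3, Insr and Igf1r were called under every alternative run, with log2 values of 2.20 to 2.60, 1.57 to 2.09, 0.96 to 1.51, 0.60 to 1.16 and 0.78 to 1.18. The members called lower in muscle numbered 0 with log2(TPM + 0.5) and 1 with log2(TPM + 0.1), where Igf1 was at -0.45 and -0.49 and Irs1 at -0.66 with the higher pseudocount (adjusted p = 0.1257, 0.1176 and 0.05276 in limma). In the hypothalamus the members called higher numbered 2 with no filter, 0 with both TPM settings and with all 12 libraries in 1 fit, and 0 to 1 with a mouse left out. For the difference between tissues, 0 members were lower with log2(TPM + 0.5), and 3 to 6 were higher with a mouse left out, 3 without control gastrocnemius mouse 2. With DESeq2 size factors Insr was not called there (0.49, adjusted p = 0.05435).

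Among the members and their ratios, the values that crossed 0 were of those not called. With a mouse left out, the muscle values ran from -0.06053 to 0.5717 for Irs2 and from -0.0493 to 0.2097 for Foxo4, the hypothalamus values from -0.0557 to 0.1125 for Igf1, from -0.02309 to 0.1276 for Irs2 and from -0.2728 to 0.03648 for Irs1, and the interaction for Irs2 from -0.1354 to 0.4916. With log2(TPM + 0.5) and log2(TPM + 0.1) the hypothalamus values were -0.07908 and -0.1036 for Igf1 and -0.002142 and -0.00222 for Irs2, and the called muscle value of Ppp2r5a became 0.02564 and 0.02613. The Insr to Igf1r difference in muscle was 0.1265 with 0.5 TPM added and -0.2128 to 0.06911 with a mouse left out. Length differences with a mouse left out ran from -42.87 to 353.6 bases for Igf1r and -32.9 to 69.72 for Akt2 in muscle, and from -45.66 to 195.7 for Igf1r, -17.77 to 45.46 for Akt2 and -14.24 to 22.72 for Foxo4 in hypothalamus; as effective length Akt2 and Foxo4 in hypothalamus were at -3.537 and -5.38. The causes were not tested.

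Of the other pathway genes given values, 21 of 37 in muscle and 2 of 21 in hypothalamus, Igfbp7 and Slc2a4, were called in all 15 alternatives; Igfbp3, Igfbp4, Slc2a1 and Txnip in hypothalamus lost the call only with all 12 libraries in 1 fit. With a mouse left out, calls in muscle ran from 1 to 4 higher and 0 to 2 lower among AKT kinases and regulators, from 3 to 5 both ways among receptors and adaptors, and from 2 to 6 higher among FOXO factors and regulators. Same-numbered CT-26 and control mice are different animals, and their deviations correlated at -0.071, 0.210 and 0.315 in muscle and -0.121, -0.050 and -0.015 in hypothalamus. With the replicate block, 2887 genes were higher and 2834 lower in muscle, and 506 and 605 in hypothalamus, and the members' counts did not change. With 3 mice a group, no exact test could pass 0.05, and Igf1, at 125 to 776 counts a library, was among the least deeply counted members.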
